A study of Homo sapiens with 3 samples.

Results

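MALAT1, NEAT1 and the paraspeckle proteins SFPQ, NONO and PSPC1 were read in RNA-seq libraries of PANC-1 cells, an established human pancreatic carcinoma line. The members were chosen by gene symbol in the deposited count table, and each of the 5 symbols matched 1 of the 51136 rows. One library came from cells without an agent (control), 1 from cells exposed to 200 μM Ginsenoside Rg3, a ginseng saponin, and 1 from cells exposed to 50 μM tamoxifen (TAM), an antiestrogen, each for 24 h. All cells were grown in DMEM with fetal calf serum. The molecule was total RNA and the sequencing was done on an Ion Proton. Whether the control cells received a solvent, and whether poly(A) RNA was selected or ribosomal RNA was removed, is not given in the sources used here.

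The summed gene counts were 11300766 (control), 12861693 (Rg3) and 11321442 (TAM). With 1 library for every condition, no difference below has a replicate check. The 95% intervals are exact (Clopper-Pearson) and cover counting error only. The line was recognisable by its epithelial keratins and vimentin, with 15329, 7817 and 14411 counts of KRT8 and 55276, 39783 and 42048 counts of VIM in the control, Rg3 and TAM libraries. Of 11 markers of acinar, blood, endothelial and stromal cells, 5 had no read in any library and 1, CD14, reached 10 counts (97, 46 and 37), and the summed counts of the 11 were 103, 53 and 43. The acinar enzyme genes PRSS1, CPA1 and AMY2A were among those at 0, although the tissue label is pancreas.

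Paraspeckles are bodies of the cell nucleus that are built on NEAT1, a long noncoding RNA, and are known for holding back certain RNAs and proteins from the rest of the nucleus. SFPQ, NONO and PSPC1 form the family of DBHS proteins (Drosophila behaviour and human splicing), which pair with each other, bind RNA and coat NEAT1. SFPQ and NONO are needed to form the bodies, while PSPC1 is a marker of them. MALAT1 is a second long noncoding RNA of the nucleus, encoded beside NEAT1, which gathers in nuclear speckles, the neighbouring bodies that store splicing factors. NEAT1 is made in a short form with a poly(A) tail and a long form that ends in a triple helix of U and A stretches in place of a tail. The long form is the scaffold of the paraspeckle.

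The forms of NEAT1 share 1 symbol, and therefore 1 count, in the deposited table. The last 100 bases of 3 annotated transcripts are shown, those of NEAT1 because their ends differ although their reads are joined in this count, and that of MALAT1 for comparison. They were taken from GENCODE 29 on GRCh38, plus strand, as DNA letters. Capitals mark the poly(A) signal AATAAA in the short NEAT1 transcript NEAT1-208 (chr11:65426414-65426513) and in MALAT1-202 (chr11:65506370-65506469). In the long NEAT1 transcript NEAT1-202 (chr11:65445441-65445540) they mark runs of T broken by C or GC and a run of A broken by GC. The end shown for MALAT1-202 is the annotated one. It need not be the end left by RNase P, the enzyme that cuts the end of MALAT1. AATAAA there therefore does not show that MALAT1 carries a poly(A) tail.
NEAT1-208: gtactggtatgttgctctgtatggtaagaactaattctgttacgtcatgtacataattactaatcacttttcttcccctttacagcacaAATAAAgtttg
NEAT1-202: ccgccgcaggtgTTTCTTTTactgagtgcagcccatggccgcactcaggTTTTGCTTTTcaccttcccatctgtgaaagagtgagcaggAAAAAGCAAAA
MALAT1-202: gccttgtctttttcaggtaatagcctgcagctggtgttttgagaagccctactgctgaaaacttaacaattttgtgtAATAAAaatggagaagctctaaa

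On the strand of the transcript, 35.3% of the 14376 lincRNA transcripts of at least 100 bases held AATAAA in their last 100 bases. At least 4 A, then GC, then at least 4 A stood there in 0.327% of them, and a pair or more of T runs (at least 3 T, then C or GC, then at least 4 T) in 0.0417%. Both the A run and the paired T runs lay in the last 100 bases of NEAT1-202, whose marked runs these patterns describe. Their presence there was therefore fixed beforehand, and the shares are given as description only. The long transcript has 22743 bases, and the end of the short one lies 3716 bases from its start, a distance of 16.3% of the long transcript's length. Reads in the part that both forms hold cannot be given to one form or the other.

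NEAT1 (ENSG00000245532; chr11:65422774-65445540, plus strand) and MALAT1 (ENSG00000251562; chr11:65497688-65506516, plus strand) are annotated as lincRNA genes. SFPQ (ENSG00000116560; chr1:35176378-35193148, minus strand), NONO (ENSG00000147140; chrX:71283192-71301168, plus strand) and PSPC1 (ENSG00000121390; chr13:19674752-19783019, minus strand) are protein-coding. These positions are from GENCODE 29 on GRCh38, the build named in the submitters' processing notes. Some reads of the members may belong to other genes. Exons of MALAT1 overlap AP000769.2 and exons of PSPC1 overlap PSPC1-AS2, both on the opposite strand, and the use of strand in counting is not given in the sources used here. MIR612, a microRNA gene inside NEAT1, had 1, 4 and 2 counts in the control, Rg3 and TAM libraries.

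In the TAM library MALAT1 and NEAT1 were at their highest and SFPQ was at its lowest of the 3 libraries, and in the Rg3 library NEAT1 was at its lowest and SFPQ at its highest. NONO was lowest with Rg3 after TMM scaling and with TAM under library totals (467.3 CPM, against 507.2 with Rg3). The largest difference from the control library was in MALAT1 with TAM, at 1.83-fold. NONO and PSPC1 were within the limits of a 1.5-fold and 0.67-fold difference in each comparison after TMM scaling. The levels that follow are CPM (read counts scaled to a common library size) after edgeR's TMM scaling (TMM factors, 1.02 for control, 1.12 for Rg3 and 0.879 for TAM). In such bulk libraries, fewer cells with a transcript and less of it per cell cannot be told apart.

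**Figure D1:**
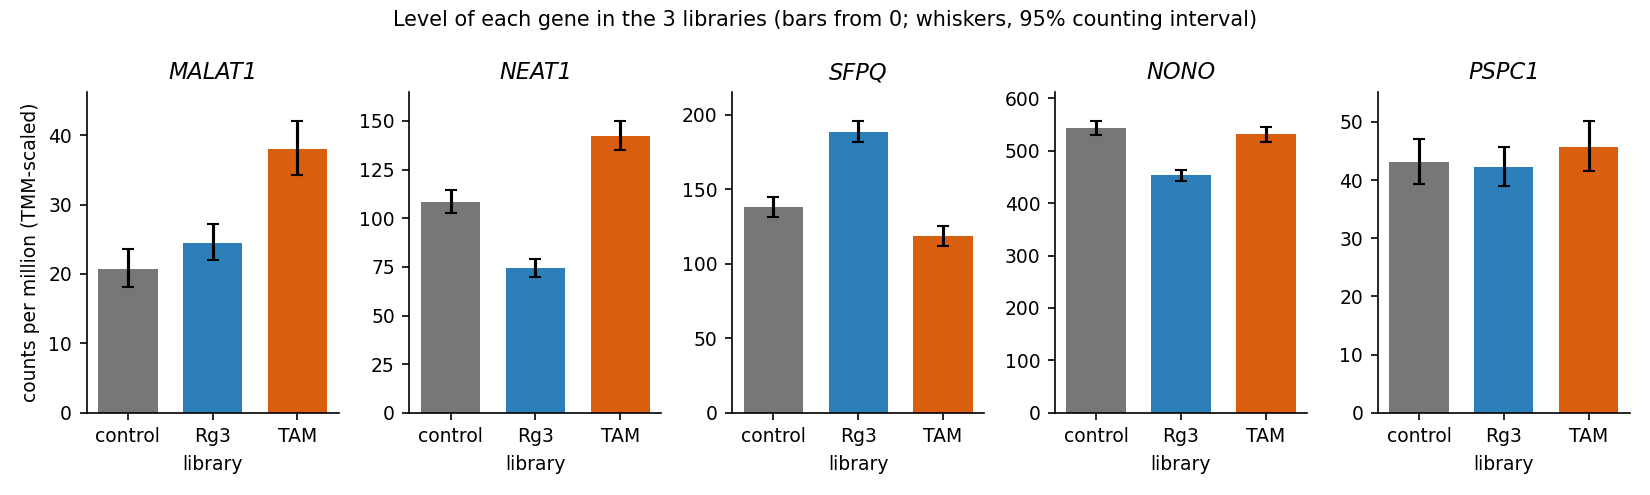
Level of MALAT1, NEAT1, SFPQ, NONO and PSPC1 in the control, Rg3 and TAM libraries, in CPM after TMM scaling (1 panel per gene, each with its own axis from 0), with 95% counting intervals as whiskers. MALAT1 stands highest with TAM (38.0), NEAT1 lowest with Rg3 (74.4) and SFPQ highest with Rg3 (188.5).

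The control library held 238 counts of MALAT1, the Rg3 library 352 and the TAM library 378. These are levels of 20.7 (95% interval 18.2 to 23.5), 24.4 (22.0 to 27.1) and 38.0 (34.2 to 42.0) CPM. The interval with TAM lay above the other 2, which overlapped each other. MALAT1 is known as one of the most abundant nuclear RNAs in many human cell types, but in these libraries it ranked 6799th by count among 22647 genes with reads in the control library, 6549th of 23138 with Rg3 and 4693rd of 22216 with TAM. Per kilobase of its longest transcript (8708 bases), its level was 2.38 CPM in the control library, where the median of the 17824 genes with reads and an annotated length was 2.98.

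The counts of NEAT1 were 1246 (control), 1071 (Rg3) and 1416 (TAM), or 108.5 (102.6 to 114.7), 74.4 (70.0 to 79.0) and 142.3 (135.0 to 149.9) CPM. The 3 intervals did not overlap, and the order was TAM, control, Rg3. Its level per kilobase depended on which form the reads came from. Over the 22743 bases of the long transcript it was 4.77 (control), 3.27 (Rg3) and 6.26 CPM (TAM), and over the 3716 bases to the short end it was 29.2, 20.0 and 38.3. With both lengths NEAT1 was above the longest transcript of MALAT1 in each library. With the mean length of all transcripts of each gene, NEAT1 was above MALAT1 in the control library (22.4 and 16.3) but under it with Rg3 (15.4 and 19.2) and with TAM (29.4 and 29.8).

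SFPQ, which forms pairs with NONO and also works in splicing and transcription, was counted 1585 times without an agent, 2715 times with Rg3 and 1182 times with TAM. Its levels were 138.0 (131.3 to 145.0), 188.5 (181.5 to 195.8) and 118.8 (112.1 to 125.7) CPM. The order was Rg3, control, TAM, the reverse of that of NEAT1, and no intervals overlapped. NONO, the most abundant of the 5 per kilobase, had 6232, 6523 and 5291 counts, or 542.8 (529.4 to 556.4), 453.0 (442.1 to 464.1) and 531.6 (517.4 to 546.1) CPM. The control and TAM intervals overlapped and the Rg3 interval lay under both. PSPC1 had 495, 608 and 455 counts, or 43.1 (39.4 to 47.1), 42.2 (38.9 to 45.7) and 45.7 (41.6 to 50.1) CPM, with intervals that overlapped throughout.

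Per kilobase of the longest transcript, the order in each library was NONO, SFPQ, PSPC1, NEAT1 and MALAT1. In the control library these levels were 168.8, 36.8, 17.9, 4.77 and 2.38 CPM per kilobase. In the Rg3 library SFPQ stood at 50.3 and NONO at 140.9, and in the TAM library they stood at 31.7 and 165.4. PSPC1 stood at 17.5 and 19.0.

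The comparison of Rg3 with control asks how the 24 h exposure to the saponin went with the levels of the 5 genes. None of them passed the limits of a fold over 1.5 or under 0.67, while 44.6% of the 16487 genes counted at least 10 times in one of the libraries did. NEAT1 came closest to the lower limit at 0.685-fold (0.631 to 0.744), a log2 fold change of -0.55 (-0.66 to -0.43). SFPQ was 1.37-fold higher (1.28 to 1.45), with a log2 fold change of 0.45 (0.36 to 0.54), and NONO was lower, at -0.26 (-0.31 to -0.21). The intervals of MALAT1 (0.24, from -0.0035 to 0.48) and PSPC1 (-0.030, from -0.20 to 0.14) held 0. NEAT1 was past the lower limit with upper-quartile factors (-0.68), and SFPQ was past the upper one with library totals (0.59).

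The comparison of TAM with control asks the same of tamoxifen. One of the 5 genes, MALAT1, passed the limits and was higher, where 17.4% of 16079 genes were higher and 41.2% passed in either direction. Its log2 fold change was 0.87 (0.64 to 1.11), a fold of 1.83 (1.55 to 2.16), and 92.2% of the genes compared lay below it. NEAT1 was also higher, at 0.39 (0.28 to 0.50), and SFPQ was lower, at -0.22 (-0.33 to -0.11), both within the limits. NONO (-0.030, from -0.083 to 0.023) and PSPC1 (0.085, from -0.10 to 0.27) had intervals that held 0.

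**Figure D2:**
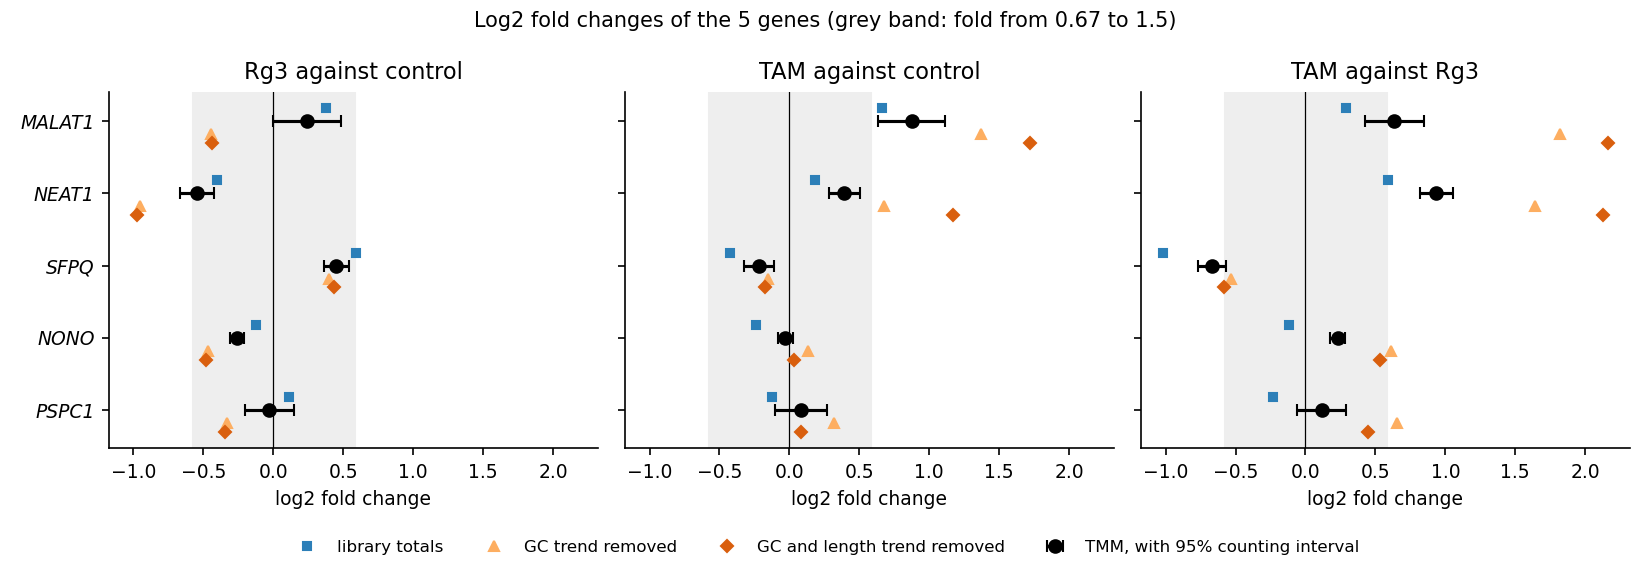
Log2 fold changes of the 5 genes in the 3 comparisons, with the TMM value and its 95% counting interval in black, and the values with library totals, after removal of a GC trend, and after removal of a trend on GC and length as coloured marks. The grey band holds folds from 0.67 to 1.5. MALAT1 with TAM is outside it at 0.87, and removal of the trend moves MALAT1 and NEAT1 further to the right in both comparisons of TAM.

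The treated libraries were also set against each other. Between TAM and Rg3, 3 of the 5 genes passed the limits, where 65.4% of 16493 genes did. NEAT1 was higher with TAM by a log2 fold change of 0.94 (0.82 to 1.05), or 1.91-fold, and MALAT1 by 0.64 (0.42 to 0.85), or 1.55-fold, with 30% of all genes higher. SFPQ was lower with TAM at -0.67 (-0.77 to -0.57), with 35.4% of all genes lower. NONO had 0.23 (0.18 to 0.28) and PSPC1 0.11 (-0.064 to 0.29), both within the limits and both with the opposite sign under library totals (-0.12 and -0.23). Within the limits were also MALAT1 under library totals (0.29) and SFPQ with upper-quartile factors (-0.41) and with a trend on GC content removed (-0.53). The 3 comparisons share libraries, so that their values are not independent.

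The share of the 5 genes past the limits was at or under the share of all genes in each comparison. With edgeR's exact test and an assumed biological coefficient of variation of 0.2, 0 of the 5 genes passed in any comparison. Few of all genes passed in either comparison with control, so that this result says little about the 5 genes there. Between TAM and Rg3 more of all genes passed, but not most of them, and no conclusion on the 5 genes is drawn there either. The outcome rests on the assumed variation, since no spread between cultures could be estimated.

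Ratios of 2 genes within a library do not depend on the scaling between libraries. Their changes still carry the trends on GC content and length described below. NEAT1 and MALAT1 differ in both, with 44.1% and 40.3% GC and 22743 and 8708 bases in their longest transcripts. The control library had 5.24 NEAT1 reads for each MALAT1 read (4.55 to 6.04), the Rg3 library 3.04 (2.69 to 3.44) and the TAM library 3.75 (3.34 to 4.21). Both treated libraries lay under the control library. The change was 0.581-fold with Rg3 (0.481 to 0.701) and 0.716-fold with TAM (0.595 to 0.859). With Rg3 the NEAT1 count was lower and the MALAT1 count higher than in the control library, and with TAM both counts were higher, that of MALAT1 by the larger proportion.

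The DBHS genes shifted among themselves with Rg3. For each NONO read there were 0.254 SFPQ reads in the control library (0.241 to 0.269), 0.416 with Rg3 (0.398 to 0.435) and 0.223 with TAM (0.210 to 0.238). This ratio was 1.64-fold higher with Rg3 than in the control library (1.52 to 1.76) and 0.878-fold with TAM (0.807 to 0.956). The share of SFPQ in the reads of the 3 DBHS genes was 19.1% in the control library (18.2 to 19.9), 27.6% with Rg3 (26.7 to 28.5) and 17.1% with TAM (16.2 to 17.97), while NONO held 74.98%, 66.3% and 76.4%. PSPC1 held 5.96%, 6.18% and 6.57%, with intervals that overlapped. Summed over the 3 genes, the log2 fold change was -0.082 with Rg3 (-0.12 to -0.040) and -0.057 with TAM (-0.10 to -0.010), so that the sum differed by less than SFPQ alone. Each sum is mostly NONO, and library totals would move it by 0.14 with Rg3 and by -0.21 with TAM, more than its own size.

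**Figure D3:**
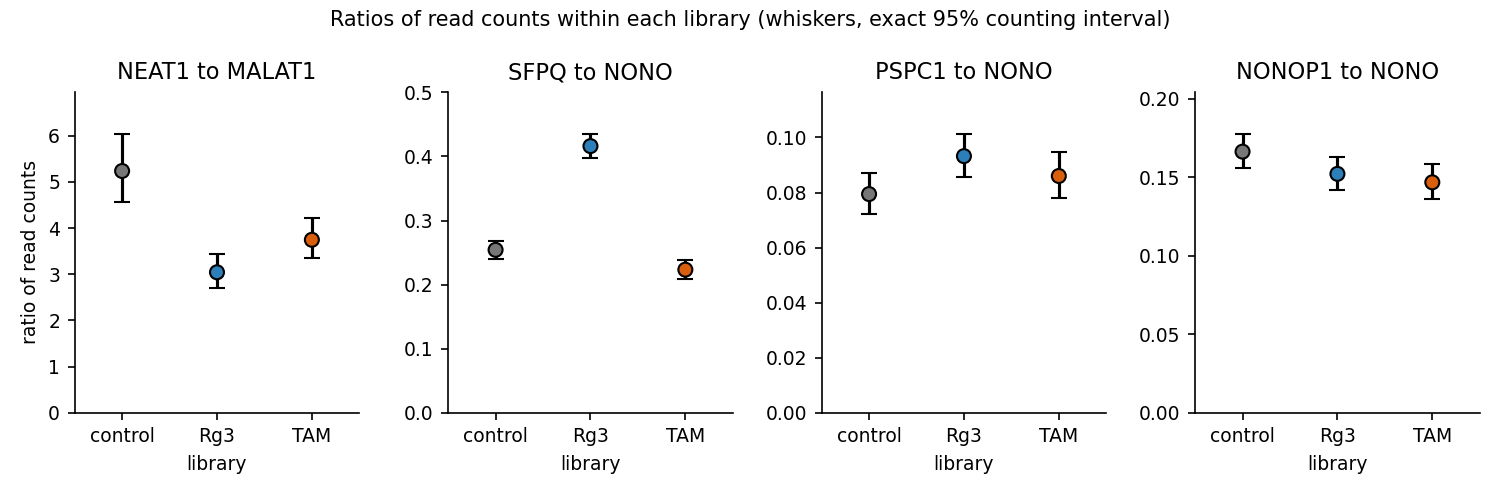
Ratios of read counts within the control, Rg3 and TAM libraries for NEAT1 to MALAT1, SFPQ to NONO, PSPC1 to NONO and NONOP1 to NONO, with exact 95% counting intervals and axes from 0. NEAT1 to MALAT1 is highest in the control library (5.24), and SFPQ to NONO is highest with Rg3 (0.416).

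NONO has a processed copy elsewhere in the genome. The table gives NONOP1, a pseudogene of NONO, 1037 (control), 993 (Rg3) and 777 (TAM) counts, and NONOP2 1, 8 and 1. RefSeq places NONOP1 at chr16:69755416-69758070 (GRCh38.p14), and the gene that shares most of the 50-base stretches of NONO in GENCODE, AC092115.1, lies within it. In all, 10.8% of the stretches of NONO recur in transcripts of other genes. There were 0.166 reads of NONOP1 for each NONO read in the control library (0.156 to 0.178), 0.152 with Rg3 (0.142 to 0.163) and 0.147 with TAM (0.136 to 0.158), a change of 0.915-fold with Rg3 (0.832 to 1.01) and of 0.883-fold with TAM (0.797 to 0.976). With both added up, the log2 fold change was -0.28 with Rg3 and -0.054 with TAM, close to the values of NONO alone. PSPC1 shares 13.1% of its stretches, mainly with PSPC1P1, which had 29, 35 and 16 counts. The shares were 4.63% for MALAT1, 2.57% for SFPQ and 1.63% for NEAT1.

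The members were set beside the medians of genes of like base composition. The spread of single genes around these medians is not given. Across genes counted at least 50 times in one of the libraries compared, which are not independent replicates, Spearman's rho between GC content and log2 fold change was -0.81 for Rg3 (11583 genes) and 0.51 for TAM (11022 genes), both against control. Between TAM and Rg3 the rho was 0.78 (11595 genes). The longest transcripts of MALAT1 and NEAT1 have 40.3% and 44.1% GC, and those of PSPC1, NONO and SFPQ have 45.3%, 46.7% and 48.8%. Of genes from 40 to 46% GC, the median log2 fold change was 0.51 with Rg3 (2987 genes) and -0.31 with TAM (2717 genes). NEAT1, in that range, had -0.55 and 0.39, opposite to both medians. MALAT1 was under the median with Rg3, at 0.24, and above it with TAM, at 0.87. PSPC1 was also under the median with Rg3, at -0.030 (-0.20 to 0.14), and above it with TAM, at 0.085 (-0.10 to 0.27). Genes from 46 to 49% GC, the range of NONO and SFPQ, had medians of 0.16 with Rg3 (1290 genes) and -0.072 with TAM (1227 genes). With Rg3, NONO was under this median, at -0.26, and SFPQ above it, at 0.45. With TAM, NONO stood at -0.030 and SFPQ at -0.22.

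**Figure D4:**
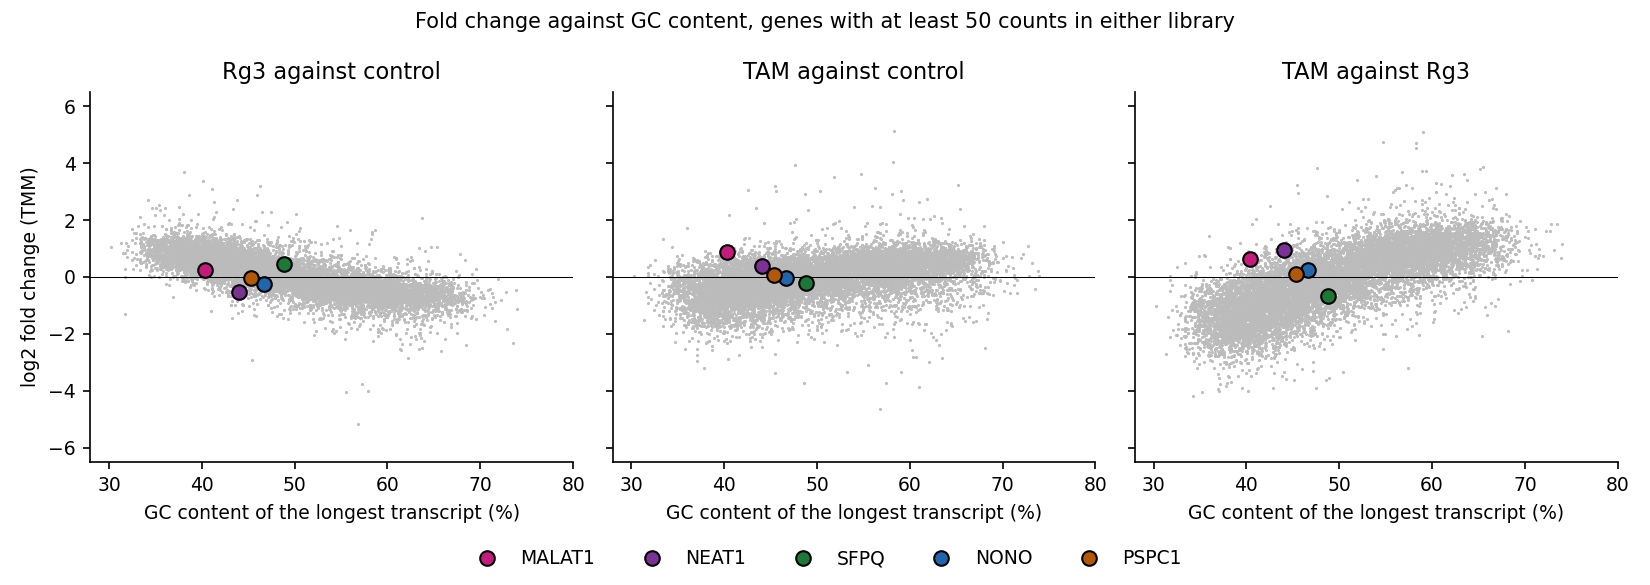
Log2 fold change (TMM) against GC content of the longest transcript for genes counted at least 50 times in one of the libraries (grey points), with the 5 genes in colour, in the 3 comparisons. MALAT1 and NEAT1, at 40.3% and 44.1% GC, lie under the cloud's centre with Rg3 and above it in both comparisons of TAM, and SFPQ, at 48.8%, lies above it with Rg3.

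After removal of a smooth trend on base composition and length, the log2 fold change of NEAT1 was -0.97 with Rg3, 1.17 with TAM and 2.13 between TAM and Rg3. The values of MALAT1 were -0.44, 1.72 and 2.16, so that its direction with Rg3 turned. SFPQ kept values of 0.43, -0.17 and -0.58, close to those without the removal. NONO moved to -0.48, 0.035 and 0.53 and PSPC1 to -0.34, 0.080 and 0.44. For NEAT1 the size of the removal depended on the transcript that stood for it. With a short transcript (3441 bases, 47.6% GC) in place of the long transcript, the values were -0.68, 0.45 and 1.14. With GC content alone removed, MALAT1 stood at -0.45, 1.37 and 1.82 and NEAT1 at -0.95, 0.67 and 1.64. Between TAM and Rg3 that removal put NONO (0.61) and PSPC1 (0.66) past the upper limit and SFPQ (-0.53) within the limits. These values are given relative to genes of like composition, and the part of the trend in the unadjusted values was not tested. The shares of all genes given here are from values with the trend left in. No such share is given for counts of genes past the limits with the trend removed, so those counts have no background beside them.

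Other proteins that build or join paraspeckles were described as lists. The first list held 7 proteins named for assembly of the bodies, and whether each is needed for it was not tested here. Of these 7, 1 was lower with Rg3 and 0 were higher, where 19.5% of all genes were lower and 25% higher. It was SMARCA4, a chromatin remodeller (-0.64, from -0.94 to -0.35), which was within the limits with the trend removed (-0.0055), and library totals left 0 of the 7 past them. HNRNPH3 (0.35) and HNRNPK (0.30), both RNA-binding proteins, had the largest values. With TAM none of the 7 passed, with RBM14, which helps the bodies to form, at 0.42 and HNRNPK at -0.33, where 17.4% of all genes were higher and 23.8% lower. With the trend removed TARDBP, an RNA-binding protein, was past the upper limit with TAM (0.87). The medians of the list were -0.24 with Rg3 and 0.10 with TAM (-0.11 under library totals), beside 0.043 and -0.024 over all genes.

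Among 23 other proteins found in paraspeckles, Rg3 went with 4 higher and 1 lower (25% and 19.5% of all genes), and TAM with 0 higher and 3 lower (17.4% and 23.8%). MATR3, an RNA-binding protein of the nuclear matrix, went from 1106 counts to 2694 with Rg3 (0.96, from 0.86 to 1.06). SRSF10, a splicing regulator, was also higher (0.82), and CIRBP, a cold-inducible RNA-binding protein, was lower (-0.69). With TAM, RBM7 (-0.96) and ZNF24 (-0.86) were lowest, while CIRBP (0.49) and EWSR1 (0.45) were within the limits. The medians were 0.16 with Rg3 and -0.15 with TAM, and both changed sign with the trend removed (-0.16 and 0.096). MATR3, SRSF10, RBM7 and ZNF24 have between 36.8% and 39.8% GC, and with the trend removed each of the 4 was within the limits. The removal moved other genes of the list out of that range. With Rg3, 2 then lay under the lower limit and 1 over the upper one. With TAM, 2 lay over the upper limit and 0 under the lower one. EWSR1, within the limits in both comparisons with control, moved away from 0, to -0.94 with Rg3, 1.14 with TAM and 2.08 between TAM and Rg3.

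Of 19 proteins of nuclear speckles, the bodies in which MALAT1 gathers, 4 were higher and 2 lower with Rg3, beside 25% and 19.5% of all genes. With TAM, 8 were lower and 0 higher, beside 23.8% and 17.4%. CLK1, a kinase of splicing factors, went from 89 counts to 382 with Rg3 (1.78, from 1.44 to 2.12), and U2AF1, a subunit of the factor that reads the 3' splice site, was lower (-1.46, from -1.64 to -1.27). GRCh38 holds a near-identical copy of U2AF1, so that its count is uncertain. SON, a scaffold of the speckles, went from 2438 counts to 978 with TAM (-1.11, from -1.22 to -1.004), and PRPF4B was lower too (-1.15). MALAT1 was higher with TAM, while the median of the list was -0.48. With the trend removed, 0 of the 19 were past the limits with TAM, and the medians were -0.22 with Rg3, in place of 0.30, and -0.081 with TAM.

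Of 18 compared genes for the processing of the ends of MALAT1 and NEAT1 or for their stability, Rg3 went with 2 higher and 2 lower (25% and 19.5% of all genes), and TAM with 3 higher and 4 lower (17.4% and 23.8%). POP5 (1.00, from 0.75 to 1.26) and RPP25 (0.92), subunits of RNase P, the enzyme that cuts the end of MALAT1, were higher with TAM. Of the other subunits compared, POP7 (0.63) was higher with TAM. RPP14 (-0.042), RPP30 (0.47), RPP38 (-0.19), RPP40 (0.041), POP1 (0.14) and POP4 (0.34) were within the limits. DIS3 (-1.09), a nuclease of the RNA exosome, and CPSF2 (-0.90), of the machinery that cuts poly(A) sites, were lower with TAM and higher with Rg3 (0.90 and 0.79). The medians were 0.12 with Rg3 and 0.091 with TAM, the second of which was -0.12 under library totals. With the trend removed, 0 of the 18 were past the limits with Rg3, and 3 were higher and 1 lower with TAM. POP5 (0.77) was among these, while RPP25 (0.54), DIS3 (-0.17) and CPSF2 (0.037) were within the limits. The others past them were further RNase P subunits, RPP14 (0.65), RPP30 (0.66) and RPP38 (-0.60), named after their values were seen.

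Other long noncoding RNAs differed among themselves. The list was written for RNAs retained in the nucleus, although GAS5 and LINC00657 are also found in the cytoplasm. Of 8 compared with Rg3, 2 were higher and 1 lower, and of 9 compared with TAM, 1 was higher and 2 lower, near the shares of all genes (25% and 19.5% with Rg3, 17.4% and 23.8% with TAM). MEG3 had 678, 326 and 645 counts and was lower with Rg3 (-1.38, from -1.58 to -1.19). TUG1 had 621, 998 and 187 counts and LINC00657 514, 909 and 158. Both were lower with TAM, at -1.53 and -1.50, where MALAT1 was higher. The medians of the list were 0.38 with Rg3 (-0.24 with the trend removed) and 0.13 with TAM (-0.075 under library totals).

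The 15 compared genes that flank NEAT1 and MALAT1 on 11q13 included 5 lower ones and no higher one with Rg3, and 6 higher ones and no lower one with TAM. The share of all genes was 19.5% for lower with Rg3, and 17.4% for higher with TAM. The medians were -0.54 and 0.52, beside -0.55 and 0.39 for NEAT1 and 0.24 and 0.87 for MALAT1. All genes from 58 to 62% GC, counted at least 50 times, had medians of -0.54 with Rg3 and 0.39 with TAM. SIPA1 (-0.96) and PCNXL3 (-0.86) were lowest with Rg3, and CDC42EP2 (0.88) and FAM89B (0.81) were highest with TAM among those with at least 100 counts. These neighbours differ from NEAT1 in base composition, with 61.5% GC in CDC42EP2, 66.8% in SIPA1 and 66.9% in FAM89B. With the trend removed, the medians of those that had a GC value were 0.055 with Rg3 (12 genes) and 0.36 with TAM (13 genes), with 0 lower and 1 higher.

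Between TAM and Rg3, where 30% of all genes were higher and 35.4% lower, the lists were read in the same way. TAM was higher in 14 of the 15 neighbours on 11q13 and lower in none, and it was lower in 10 of the 19 speckle proteins and higher in 1. With the trend removed, 2 of 13 neighbours were higher (median 0.13, in place of 1.03), and of the speckle proteins 2 were higher and 1 lower (median 0.26, in place of -0.66). Of the other paraspeckle proteins 10 were lower and 2 higher, with MATR3 at -1.70 and CIRBP at 1.18. With the trend removed 8 were higher and 1 lower (median 0.10, in place of -0.40), and MATR3 (-0.044) and CIRBP (0.35) were within the limits. Of the assembly proteins 2 were higher, RBM14 (0.77) and SMARCA4 (0.74), and 2 lower, HNRNPK (-0.63) and HNRNPH3 (-0.59). Each of these 4 was within the limits with the trend removed (-0.19, 0.024, 0.16 and 0.15), and library totals left 0 higher and 2 lower.

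**Figure D5:**
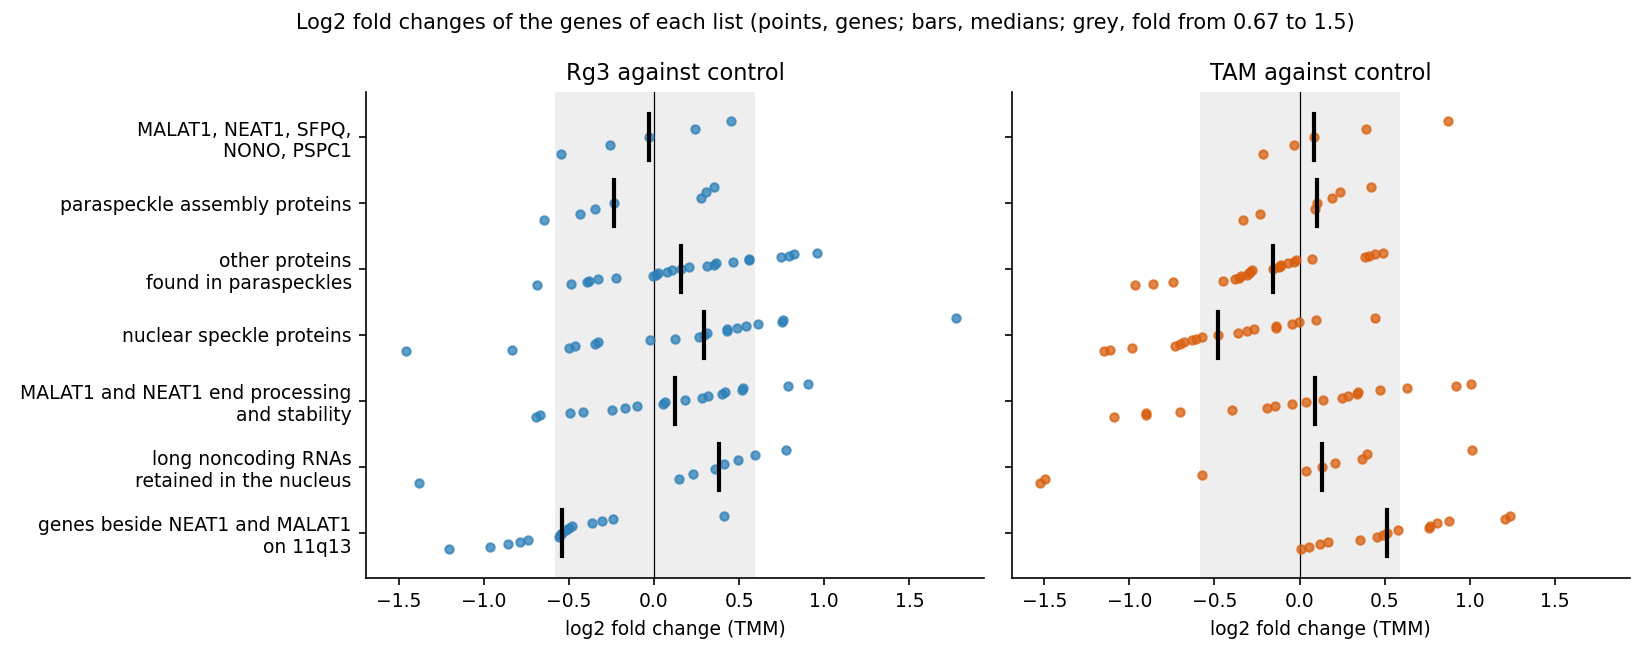
Log2 fold changes (TMM) of the 5 genes and of the genes of 6 lists, with Rg3 and with TAM against control, where points are genes counted at least 10 times in one of the libraries, black bars are medians and the grey band holds folds from 0.67 to 1.5. The nuclear speckle list has its median at 0.30 with Rg3 and -0.48 with TAM, and the 11q13 neighbours have theirs at -0.54 and 0.52.

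The genes most like MALAT1 and NEAT1 were found by the Euclidean distance between pairs of log2 fold changes with Rg3 and TAM, over 9766 genes with at least 100 counts in the control library. Nearest to MALAT1 were CKLF-CMTM1 (distance 0.043), a readthrough of 2 neighbouring genes, RPS27 (0.061), a ribosomal protein, and UAP1L1 (0.062). RPS27 had 334, 504 and 511 counts. Nearest to NEAT1 were SERF1A (0.0041), PTMA (0.015), which encodes prothymosin alpha, and LOC284685 (0.015). PTMA had 6631, 5723 and 7609 counts. SERF1A has a near-identical copy, SERF1B, and RPS27 and PTMA have pseudogenes, so that their counts are uncertain. With 3 libraries, likeness rests on 2 values for a gene.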

How the data were processed

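PANC-1 cells were profiled by RNA-seq in 3 libraries, 1 for each condition, grouped by the agent in the sample labels. The authors checked reads with FAST-QC, aligned them with TopHat, assembled mapped reads with MAQ and deposited raw read counts for 51136 gene symbols. The build in the submitters' processing notes is GRCh38; the annotation, the counter and the use of strand are not given in the sources used here. From the deposited counts, folds were computed in Python 3.11.15 after TMM scaling in edgeR 4.0.16 (R 4.3.3), for genes counted at least 10 times in one of the libraries compared. The limits were folds of 1.5 and 0.67. A Limma test, as in the study's methods, could not be run with 1 library per condition. Intervals are exact binomial (95%), and for changes of ratios exact conditional odds ratios.

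Alternatives were library totals, DESeq2 1.42.0 size factors, upper-quartile factors, other filters, a 2-fold limit, edgeR's exact test with an assumed variation of 0.2 or 0.4, and removal of a loess trend (span 0.3, genes with at least 50 counts) on GC content and length of the longest GENCODE 29 transcript. A GC value was available for 86.6% (Rg3) and 87.2% (TAM) of genes. The members and gene lists were chosen with earlier results of these data known. Named genes were the 5 members, the 2 largest and 2 smallest folds of each list at 100 counts or more (of which the text gives some), the 3 genes nearest to MALAT1 and to NEAT1, and genes that share sequence or overlap with a member; genes of like count rank, also allowed, were not named. CD14, SERF1B, RPP14, RPP30, RPP38, RPP40, POP1 and POP4 were named after their values were seen. The steps were tested on simulated data.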

Additional observations from a re-analysis of the deposited data

How the results depend on the processing

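No paired analysis was possible because a single library stands for every condition, which also leaves no replicate to leave out. Of the 15 log2 fold changes of the 5 genes, no value past the limits changed its sign under any alternative. Library totals turned the sign of 4 values within the limits (PSPC1 in each comparison and NONO between TAM and Rg3), upper-quartile factors and DESeq2's size factors that of NONO with TAM, and removal of the trend that of NONO with TAM and MALAT1 with Rg3. Library totals shifted every log2 fold change by 0.14 with Rg3, by -0.21 with TAM and by -0.35 between TAM and Rg3.

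With Rg3, 1 of the 5 genes was past the limits in place of 0 with library totals (SFPQ, 0.59), with upper-quartile factors (NEAT1, -0.68) and after removal of the GC and length trend (NEAT1, -0.97). With TAM, 2 were past in place of 1 with the trend removed (MALAT1, 1.72, and NEAT1, 1.17). With a short transcript standing for it, NEAT1 was within the limits with TAM (0.45) and past the lower one with Rg3 (-0.68). A 2-fold limit left 0 with TAM and 0 between TAM and Rg3 in place of 3, as did edgeR's exact test with an assumed variation of 0.2 or of 0.4. Unadjusted p-values of that test rest on the assumed variation and are not used here to single out genes. At 0.4 it called 0 of all 16493 genes between TAM and Rg3 by adjusted p.

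Among all genes, the counts moved too. The split of higher and lower under library totals was 5180 and 2321 with Rg3 (in place of 4122 and 3223), 1576 and 5259 with TAM (2799 and 3823), and 3105 and 7499 between TAM and Rg3 (4950 and 5843). A filter of 50 counts left 2139 lower with Rg3 in place of 3223 and 2529 lower with TAM in place of 3823. Between TAM and Rg3, MALAT1 with library totals (0.29) and SFPQ with upper-quartile factors (-0.41) were within the limits. Mean transcript length in place of the longest put MALAT1 above NEAT1 per kilobase with Rg3 (19.2 and 15.4 CPM) and with TAM (29.8 and 29.4), but not in the control library (16.3 and 22.4). The NEAT1 values with a short transcript were added after the data were seen. Depth limits MALAT1 most, whose 238 control counts give an interval from 18.2 to 23.5 CPM.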
